A study of Mus musculus with 39 samples.

Results

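Cytokine mRNA decay factors are RNA-binding proteins that shorten or lengthen the life of inflammatory messages. They were taken as 7 genes by symbol from the deposited raw counts of 16144 genes: the endoribonuclease gene Zc3h12a and its relative Zc3h12c, the ZFP36 family genes Zfp36, Zfp36l1 and Zfp36l2, the roquin gene Rc3h1, and the HuR gene Elavl1. All 7 passed the filter on low counts.

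The cells were primary microglia, the macrophages of the brain, from neonatal C57BL/6 mice at passage 1, grown on an astrocyte layer for 7 to 10 days and shaken off. Donors, plated in 24-well plates at about 250000 cells a well, received 1 µM Atto-488-labelled alpha-synuclein for 14 h. Acceptors, typically 6000000 cells in a T25 flask, were stained with a violet tracer dye for 15 min. Donors and acceptors then stayed together for 15, 30, 60, 150 or 300 min without touching, and RNA was taken from each. With donors, acceptors and a control at 0 min this makes 13 groups of 3 libraries, 39 in all. The letters TW on the donor and acceptor groups are not defined in the labels, which also leave out the vessel and density of the control. Alpha-synuclein, plating density, vessel and dye therefore cannot be told apart between donors and acceptors, nor time together from time after handling. Whether the 3 libraries in each group were grown separately is not stated, so p-values measure the spread between libraries, which may be technical. QuantSeq 3′ libraries were read as 100-base single reads, so a gene is counted by tags near its poly(A) end.

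Inflammatory messages such as those of TNF and the interleukins carry AU-rich elements in their 3′ untranslated regions (UTRs). ZFP36 (tristetraprolin), ZFP36L1 and ZFP36L2 bind these elements through paired zinc fingers and recruit the CCR4-NOT deadenylase, and HuR binds similar elements and mostly protects the message. Regnase-1, the product of Zc3h12a, cleaves messages at stem-loops, and roquin-1 binds stem-loops of the same kind and recruits deadenylation. In macrophages Toll-like receptor signals induce Zfp36 and Zc3h12a themselves, and p38 signalling through MK2 phosphorylates ZFP36 and restrains it.

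The AU-rich core sought in the UTRs was TATTTAT, read on the message strand only and counted with overlaps, in 1 annotated transcript per gene of GENCODE M21 (GRCm38, written in DNA letters). That was the coding transcript with the longest 3′ UTR, and shorter forms, which may be the more usual, were not searched. Of 11997 tested genes with an annotated 3′ UTR, 30.4% held it at least once. It occurred 3 times in Zfp36, where 0.945% of UTRs within 20% of its length held as many. It occurred 3 times in each of Zfp36l1 and Zfp36l2, against 3.62% and 3.61% of UTRs of like length. Elavl1 held 8 copies, against 0.202%. Zc3h12c and Rc3h1 held 2 each, against 27.1% and 42.8%, and Zc3h12a held none, where 20.8% of like-length UTRs held some. These 30-base stretches show the core, in capitals, in the ZFP36 family, in Elavl1 and in the cytokine messages Tnf and Il1b that such proteins are known to bind. Tnf and Il1b are shown for their 8 and 3 copies, whereas Il6 and Il12b held 1 copy each, where 35.7% and 20.5% of UTRs of like length held at least as many.
Zfp36, chr7:28376962-28376991, minus strand: gggcccttTATTTATgacgacttTATTTAT
Zfp36l1, chr12:80108422-80108451, minus strand: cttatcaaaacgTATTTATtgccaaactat
Zfp36l2, chr17:84184914-84184943, minus strand: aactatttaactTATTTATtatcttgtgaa
Elavl1, chr8:4285776-4285805, minus strand: TATTTATTTATTTATTTATtttTATTTATt
Tnf, chr17:35199678-35199707, minus strand: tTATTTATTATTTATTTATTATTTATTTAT
Il1b, chr2:129364807-129364836, minus strand: aaccacttaccTATTTATTTATgTATTTAT

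The stem-loops that Regnase-1 and roquin recognise were described by a perfect stem of 6 pairs around a loop of TAT or TGT, a form that 4.98% of the 11997 UTRs held. Zc3h12a had 1 such stretch, where 3.46% of UTRs of like length had any, and Rc3h1 had 4, against 17.4%. Zc3h12c, the ZFP36 family genes and Elavl1 had none. The loop is in capitals in these stretches of Zc3h12a, Rc3h1 and the messages Tnf, Nfkbiz and Nfkbid, which roquin or Regnase-1 is known to act on. They were chosen because they hold the form. The messages of Il6, Il12b, Il1b, Ptgs2, Ier3 and Lcn2 held none, and 2 of the 4 stretches of Rc3h1 overlap in a repeat of T and A. A match of letters is a description and not a bound site, and no match says nothing of binding.
Zc3h12a, chr4:125118663-125118677, minus strand: tttaaaTATtttaaa
Rc3h1, chr1:160971660-160971674, plus strand: aacttcTGTgaagtt
Tnf, chr17:35199585-35199599, minus strand: gttttcTGTgaaaac
Nfkbiz, chr16:55812614-55812628, minus strand: tgtttcTATgaaaca
Nfkbid, chr7:30428402-30428416, plus strand: gatttcTGTgaaatc

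Total reads ran from 8649169 to 15910662 per library, and 3 counts, the smallest level read as present, equal 0.189 to 0.347 counts-per-million (CPM) before scaling. TMM scaling factors lay between 0.829 and 0.927 for donors, between 0.883 and 1.23 for acceptors, and between 1.08 and 1.17 for the control. The summed level of 10 microglia and macrophage markers, all of them detected, was 10950 to 11270 CPM in the control, 3987 to 6162 in donors and 9511 to 29820 in acceptors. The highest of these values belongs to replicate 2 of acceptors at 300 min, which stands apart. It was the shallowest library, with reads on only 11951 genes, and without it the acceptors end at 15680 CPM. Without it, 2 of the 7 genes and not 1 were called between donors and acceptors at 300 min, Zfp36l2 being the gain. The log2 ratios then were 1.54 for Zc3h12a (adjusted p = 4.01e-04), 0.44 for Zc3h12c, 0.22 for Rc3h1 and 0.13 for Elavl1, and those of the other genes stand with their results. Markers of fibroblasts and vessels summed to 11.6 to 21.3 CPM in donors, 0.932 to 2.35 in the control and 0.0866 to 4.72 in acceptors, from 5 of 6 markers. S100a8, the only measured one of 6 markers of other immune cells, was at 14.2 to 93.3 CPM in donors, 0 to 1.24 in the control and 0 to 2.23 in acceptors. Astrocyte markers summed to at most 22.8 CPM, neuron markers to at most 23.9 CPM and oligodendrocyte markers to at most 348 CPM in any library. The part of these differences in the results was not tested. In bulk RNA, a lower level can come from fewer cells of a type or from less RNA per cell, which cannot be told apart here.

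At 0 min, donors differed from the control in 2 of the 7 genes: Zc3h12a was higher and Zfp36l1 was lower. Among all 13034 genes tested, 19.7% were called in that comparison, 10.3% higher and 9.34% lower. Against acceptors at 0 min 3 genes were called, Zc3h12a and Zfp36 higher and Zfp36l1 lower, beside 22.8% of all genes. At 15, 30, 60, 150 and 300 min, 2, 2, 3, 2 and 1 of the 7 were called, beside 21.9%, 22.6%, 22.2%, 22.1% and 23% of all genes, and at 60 min 9.69% were called lower. Donors at 300 min differed from the control in 3 of the 7, beside 18.1%. Averaged over the 6 times, 5 were called, with Zc3h12a, Zfp36 and Zc3h12c higher and Zfp36l1 and Zfp36l2 lower in donors. The background of that average is 62.6% of all genes, so the count itself is no result about these genes, and the direction and size of each are what follow. Called, higher, lower, rose and fell refer to a quasi-likelihood test in edgeR, Benjamini-Hochberg adjusted over all genes, at 0.05. Log2 ratios are fitted values ± SE, where the SE is derived from the test's own F statistic. Acceptors at 0 min differed from the control in none of the 7, and in 0 genes of the 13034 (263 at an unadjusted p under 0.05, and 0 called by DESeq2 or limma).

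**Figure D1:**
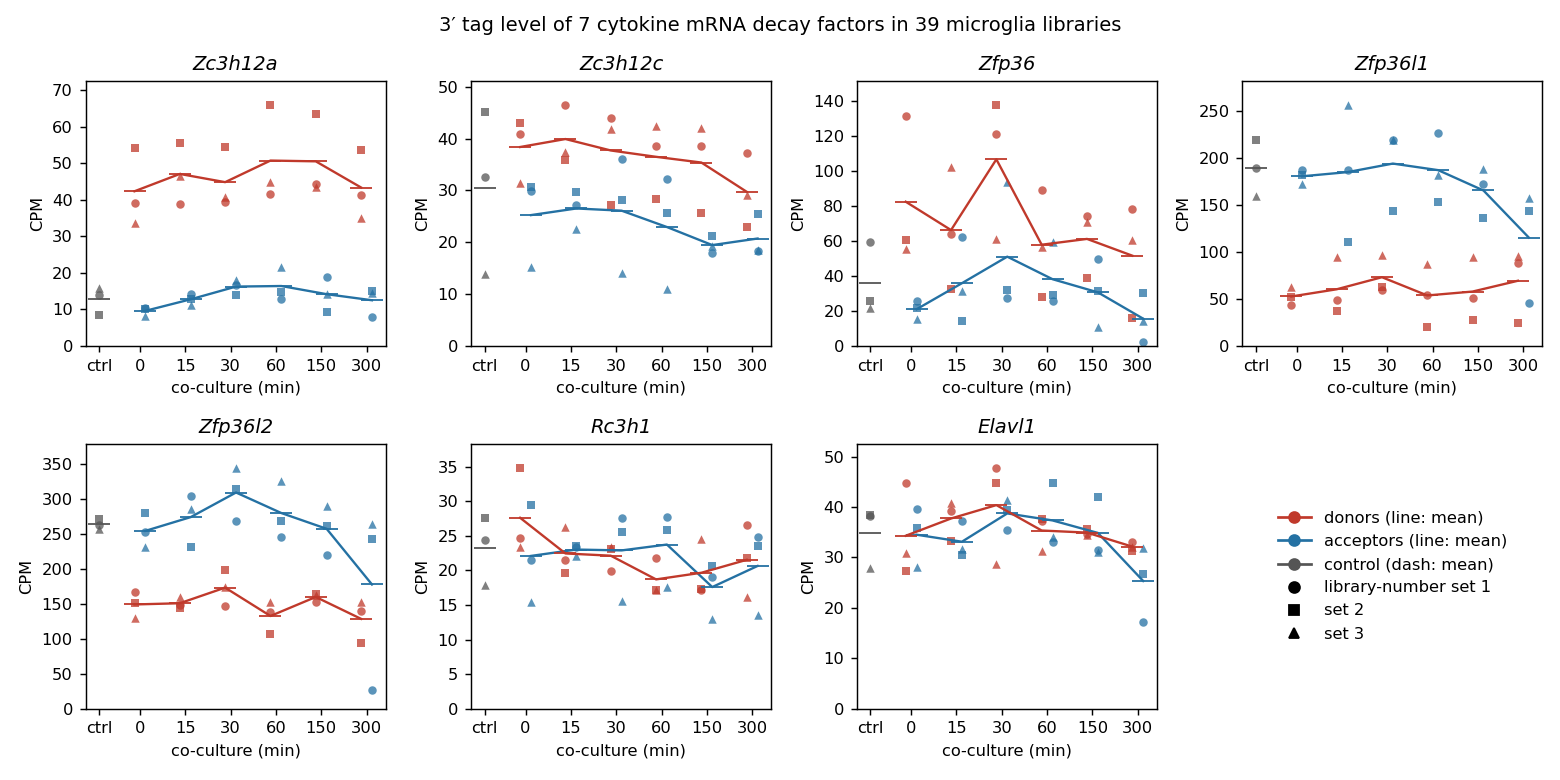
Level of each decay factor in CPM (y axis, linear from 0) in control, donor and acceptor libraries by minutes of co-culture (x axis, evenly spaced categories). Points are libraries, with the symbol giving the set of consecutive library numbers, and lines join group means. All 18 donor libraries of Zc3h12a lie above the acceptors and the control, at 33.7 to 65.8 CPM, while donors of Zfp36l1 lie below the control.

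Zc3h12a lies on chromosome 4 (125118423 to 125127840, minus strand, GRCm38, protein coding) and encodes the RNase that cleaves Il6, Il12b and its own message. In the order of the library numbers in the titles, which form 3 consecutive sets with 1 library of every group each, the control measured 14.0, 8.39 and 15.8 CPM. Donors at 0 min measured 39.2, 54.0 and 33.7 CPM, and acceptors at 0 min 10.5, 10.2 and 8.19 CPM. The lowest donor was thus above the highest control and acceptor library. Later donors measured 38.95, 55.6 and 46.6 CPM at 15 min, 39.3, 54.4 and 40.6 at 30 min, and 41.5, 65.8 and 44.7 at 60 min. They measured 44.4, 63.5 and 43.6 CPM at 150 min and 41.2, 53.7 and 35.1 at 300 min. The donors therefore stayed in 1 band at every time, in which set 2 was the highest each time. Acceptors measured 14.2, 12.98 and 11.2 CPM at 15 min, 16.7, 14.0 and 18.1 at 30 min, and 12.8, 14.9 and 21.5 at 60 min. They measured 18.9, 9.42 and 14.3 CPM at 150 min and 7.86, 15.1 and 14.6 at 300 min. No acceptor reached any donor: all 18 donors lay above all 18 acceptors and above all 3 controls, a separation shown by 5.7% and 9.9% of the genes tested. For separations at a single time, here and below, and for those with some libraries set aside, no share of all genes was counted.

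The log2 ratio of Zc3h12a in donors over control at 0 min was 1.73 ± 0.28 (adjusted p = 3.42e-05). Over acceptors it was 2.13 ± 0.29 at 0 min (adjusted p = 1.67e-06) and lay between 1.46 at 30 min and 1.88 at 15 min at the later times, each of them called. The largest adjusted p of these was 2.28e-04. Donors at 300 min still exceeded the control by 1.76 ± 0.28 (adjusted p = 3.06e-05). The mean over the 6 times was 1.78 ± 0.12 (adjusted p = 5.56e-15). In the order of levels, the 6 donor groups came first with means from 50.7 ± 13.2 (60 min) to 42.3 ± 10.5 CPM (0 min; SD, n = 3). The next was acceptors at 60 min with 16.4 ± 4.56 CPM, and the last was acceptors at 0 min with 9.63 ± 1.25. Within the donor groups, and within the others, neighbours in this order differed by less than the larger of their SDs.

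Zc3h12c (chromosome 9, 52111344 to 52168572, minus strand) encodes Regnase-3, a relative of Regnase-1 that is found in macrophages. The control spread widely, at 32.6, 45.1 and 13.9 CPM. Donors at 0 min measured 40.8, 42.9 and 31.4 CPM and acceptors at 0 min 29.9, 30.6 and 15.3. Donors and acceptors at 0 min did not overlap, but both ranges met that of the control. Over all times, donors ran from 22.9 to 46.5 CPM and acceptors from 10.9 to 36.1 CPM, with 11 of 18 donors above every acceptor. No single time was called: the log2 ratios of donors over acceptors ran from 0.52 at 300 min to 0.86 at 150 min (lowest adjusted p = 0.0801), and the ratio over control at 0 min was 0.33 ± 0.35 (adjusted p = 0.555). The mean over the 6 times was 0.63 ± 0.14 (adjusted p = 3.38e-04). That call was lost when libraries were scaled by total counts only (0.30, adjusted p = 0.0644). In library set 2 the donor mean of the 6 times, 30.5 CPM, stood near the acceptor mean of 26.8, whereas in set 3 the means were 37.4 and 16.8 CPM.

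Zfp36 (chromosome 7, 28376784 to 28380253, minus strand) encodes tristetraprolin, which carries AU-rich messages, its own among them, to deadenylation. The control measured 59.6, 25.97 and 21.8 CPM. Donors at 0 min measured 131, 60.5 and 55.4 CPM, and acceptors at 0 min 25.8, 21.7 and 15.6. At 0 min every donor was above every acceptor, while 1 control library lay within the donor range. Later donors measured 63.7, 32.8 and 102 CPM at 15 min, 121, 138 and 60.9 at 30 min, and 89.0, 28.2 and 56.3 at 60 min. They measured 74.1, 38.6 and 70.7 CPM at 150 min and 78.1, 16.2 and 60.4 at 300 min. The 3 libraries of a donor group thus spread widely, with set 2 the lowest at 15, 60, 150 and 300 min and the highest at 30 min. Acceptors measured 62.1, 14.1 and 31.5 CPM at 15 min, 27.4, 32.02 and 93.7 at 30 min, and 25.8, 29.2 and 59.5 at 60 min. They measured 49.8, 31.5 and 10.7 CPM at 150 min and 2.36, 30.2 and 14.4 at 300 min, where the lowest value, from 18 reads, is the library that stands apart.

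The log2 ratio of Zfp36 in donors over acceptors at 0 min was 1.97 ± 0.68 (adjusted p = 0.0322). That call was lost with total counts (1.66, adjusted p = 0.0787) and when any replicate of acceptors at 0 min or replicate 2 of donors at 0 min was left out, with adjusted p from 0.00352 to 0.17 over the alternatives. Over control the ratio was 1.203 ± 0.66 (adjusted p = 0.208). At 300 min it was 1.70 ± 0.68 over acceptors (adjusted p = 0.0665), and 1.21 without the library that stands apart (adjusted p = 0.237). It was called without replicate 1 of donors at 300 min (2.12, adjusted p = 0.0273) or replicate 3 of acceptors at 300 min (2.61, adjusted p = 0.0167). The mean over the 6 times was 1.202 ± 0.27 (adjusted p = 2.59e-04). Group means of donors ran from 107 ± 40.4 CPM at 30 min to 51.6 ± 31.9 at 300 min, followed by acceptors at 30 min with 51.0 ± 37.0 CPM. Neighbours in the whole order of the 13 groups differed by less than the larger of their SDs.

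Zfp36l1 (chromosome 12, 80107754 to 80113013, minus strand) encodes a ZFP36 relative that acts on the same elements, also in resting cells. The control measured 189.6, 219 and 160.4 CPM. Donors at 0 min measured 43.5, 51.9 and 63.1 CPM, and acceptors at 0 min 187, 182 and 173. The donors were thus far below the other groups, which overlapped. Later donors measured 49.5, 37.0 and 95.1 CPM at 15 min, 59.9, 63.2 and 97.0 at 30 min, and 54.8, 20.04 and 87.0 at 60 min. They measured 51.2, 27.8 and 95.3 CPM at 150 min and 88.0, 24.9 and 95.9 at 300 min. Set 3 was the highest of the donors at each time. Acceptors measured 188, 111 and 257 CPM at 15 min, 220.0, 144 and 219 at 30 min, and 227, 153 and 182 at 60 min. They measured 173, 136 and 188 CPM at 150 min and 45.5, 144 and 157 at 300 min. Apart from the 45.5 CPM of the library that stands apart, every acceptor lay above every donor, and all 18 donors lay below all 3 controls, as did 8.1% of the genes tested. With no library set aside, 3.51% of the genes tested had all donors below all acceptors.

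The log2 ratio of Zfp36l1 in donors over control at 0 min was −1.84 ± 0.47 (adjusted p = 0.00509). Over acceptors it was −1.78 ± 0.47 at 0 min (adjusted p = 0.00598), −1.61 at 15 min, −1.41 at 30 min, −1.79 at 60 min and −1.51 at 150 min, each called. The calls at 15, 30 and 150 min were lost when any of 3 or 4 single libraries was left out (highest adjusted p = 0.111). At 300 min the ratio was −0.73 ± 0.46 (adjusted p = 0.268), and −1.11 without the library that stands apart (adjusted p = 0.0954). Donors at 300 min lay below the control by −1.45 ± 0.47 (adjusted p = 0.028), a call lost without replicate 1 of those donors or without replicate 1 or 3 of the control (highest adjusted p = 0.164). The mean over the 6 times was −1.47 ± 0.19 (adjusted p = 4.6e-08). In the order of levels, 6 groups from acceptors at 30 min (194 ± 43.5 CPM) to acceptors at 150 min (166 ± 26.6) included the control at 189.7 ± 29.5. Acceptors at 300 min followed with 116 ± 61.1 CPM and the donors came last, from 73.4 ± 20.6 at 30 min to 52.9 ± 9.81 at 0 min. Neighbours in this order differed by less than the larger of their SDs.

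Zfp36l2 (chromosome 17, 84183931 to 84187947, minus strand) encodes the other family member measured. The control was tight, at 263, 271 and 258 CPM. Donors at 0 min measured 167, 151 and 129.7 CPM, and acceptors at 0 min 253, 280.1 and 232. Donors again lay below the other groups with no overlap, though neither comparison at 0 min was called. Over all times donors ran from 94.0 to 198 CPM with a median of 152.0, and acceptors from 26.3 to 345 CPM. The lowest acceptor is again the library that stands apart, and the other 17 lay above every donor. All 18 donors lay below all 3 controls, as did 8.1% of the genes tested.

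The log2 ratio of Zfp36l2 in donors over control at 0 min was −0.82 ± 0.36 (adjusted p = 0.109). It was called with total counts (−1.18, adjusted p = 0.0267) and when only the groups compared were fitted. Of the single times against acceptors, only 60 min was called (−1.08 ± 0.36, adjusted p = 0.0306). At 0, 15, 30 and 150 min Zfp36l2 was called with total counts (highest adjusted p = 0.0476) and when only the groups compared were fitted (highest adjusted p = 0.017). At 60 min, limma or leaving out 1 of 5 of its 6 libraries ended that call (highest adjusted p = 0.123). At 300 min the ratio was −0.47 ± 0.36 (adjusted p = 0.38), and without the library that stands apart it was −0.98 (adjusted p = 3.31e-04). Donors at 300 min were lower than the control by −1.04 ± 0.36 (adjusted p = 0.0441), which limma or leaving out any of the 6 libraries took over the threshold (highest adjusted p = 0.182). The mean over the 6 times was −0.78 ± 0.15 (adjusted p = 2.68e-05). Apart from acceptors at 300 min (178 ± 132 CPM), the acceptor and control groups lay between 255 ± 24.3 and 309.8 ± 38.4 CPM. The donor groups lay between 129 ± 30.9 and 174 ± 25.5 CPM.

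Rc3h1 (chromosome 1, 160906418 to 160974978, plus strand) encodes roquin-1. The control measured 24.4, 27.6 and 17.9 CPM, donors at 0 min 24.6, 34.8 and 23.4, and acceptors at 0 min 21.4, 29.4 and 15.45. The 3 groups overlapped, as did donors and acceptors over all times (16.2 to 34.8 and 13 to 29.4 CPM). The mean log2 ratio of donors over acceptors was 0.02 ± 0.11 (adjusted p = 0.898), and the single times ran from −0.34 to 0.32 with none called. Elavl1 (chromosome 8, 4285382 to 4325413, minus strand), which encodes HuR, measured 38.3, 38.5 and 27.9 CPM in the control, 44.8, 27.3 and 30.8 in donors at 0 min and 39.6, 35.9 and 28.1 in acceptors at 0 min. These ranges overlapped too, and the mean log2 ratio over the 6 times was 0.08 ± 0.09 (adjusted p = 0.421). With total counts as the only scaling, both genes were called lower in donors (−0.31 with adjusted p = 0.00944 for Rc3h1, −0.26 with adjusted p = 0.0205 for Elavl1). That scaling moved the median log2 ratio of all genes from −0.08 to −0.42, and both ratios lay above that median. It also moved the calls from 3846 higher and 4307 lower genes to 2255 higher and 6499 lower. The total-count ratios of Zc3h12c and Zfp36l2 given above were likewise lower than in the main fit. In the order of the 13 group means, from 27.6 to 17.6 CPM for Rc3h1 and from 40.4 to 25.3 CPM for Elavl1, donor and acceptor groups were mixed.

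**Figure D2:**
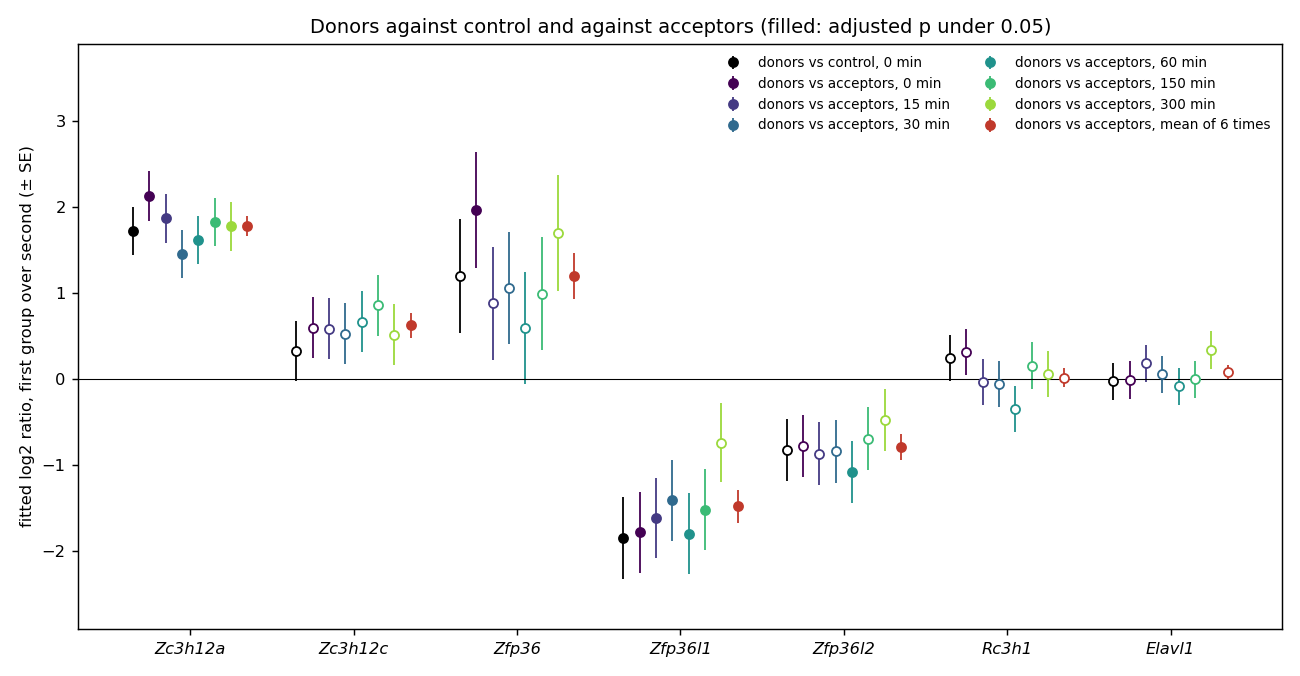
Fitted log2 ratios (y axis, ± SE) of donors over control at 0 min and of donors over acceptors at each time and averaged over the 6 times, for the 7 genes (x axis). Filled points have an adjusted p under 0.05. Zc3h12a is filled in all comparisons at 1.46 to 2.13, and Zfp36l1 is below 0 in all, with the point at 300 min open.

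The sets of library numbers gave the same order of populations for the genes that differed most. The donor and acceptor means of Zc3h12a over the 6 times were 40.8 and 13.5 CPM in set 1, 57.8 and 12.8 in set 2, and 40.7 and 14.6 in set 3, with the donor above the acceptor of its set at 6 of 6 times in each. For Zfp36l1 the means were 57.8 and 173 CPM, 37.5 and 145 CPM, and 88.9 and 196 CPM, and the donor was above its acceptor once, at 300 min in set 1. For Zfp36l2 they were 149 and 220.1 CPM, 143 and 267 CPM, and 156 and 291 CPM. For Zfp36 they were 92.9 and 32.2 CPM, 52.3 and 26.4 CPM, and 67.6 and 37.6 CPM, with the donor above its acceptor at 6, 4 and 4 of 6 times. What the sets stand for is not given in the labels. Donor and acceptor comparisons at different times share no libraries. Their average uses the libraries of all of them, and donors at 0 min enter both comparisons at 0 min. Yet later acceptor libraries deviated together with the 0 min library of their set, as did later donors except at 150 min. The average takes all of them as separate, so its SE and p-values may be too small. All comparisons took their spread from 1 fit to all groups.

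A shift in the makeup of the ZFP36 family went with these levels. Reads from message ends do not scale with the length of a transcript, so the reads of the 3 genes were added, and a share within a library does not depend on how libraries are scaled. Zfp36 held 27.9 ± 9.11% of the family's reads in donors at 0 min, 7.21 ± 3.83% in the control and 4.58 ± 0.917% in acceptors at 0 min (SD, n = 3). In each comparison the 3 donors lay above the 3 others, and the two-sided exact permutation p was 0.1, the smallest that 3 against 3 allows. Over all times the share ran from 12.02% to 38.4% in donors and from 2.19% to 14.2% in acceptors, so the populations met only at the edge. The share of Zfp36l1 ran the other way, from 12.02% to 31.0% in donors and from 29.3% to 61.3% in acceptors, where the highest value is the library that stands apart. Zfp36l2 remained the largest contributor on average at 52.9 ± 4.29% in donors at 0 min, 54.2 ± 3.89% in the control and 55.75 ± 1.88% in acceptors at 0 min. The family as a whole summed to 285 ± 50.3 CPM in donors at 0 min, 489.6 ± 43.0 in the control and 457 ± 32.8 in acceptors at 0 min.

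Of the reads of Zc3h12a and Zc3h12c together, Zc3h12a held 52.2 ± 3.39% in donors at 0 min, 33.0 ± 19.0% in the control and 28.6 ± 5.43% in acceptors at 0 min. Donors and control overlapped here (exact permutation p = 0.3, two-sided), while donors and acceptors did not (p = 0.1, the smallest possible). Over all times the ranges overlapped, at 45.6% to 71.3% in donors and 25.0% to 66.3% in acceptors.

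**Figure D3:**
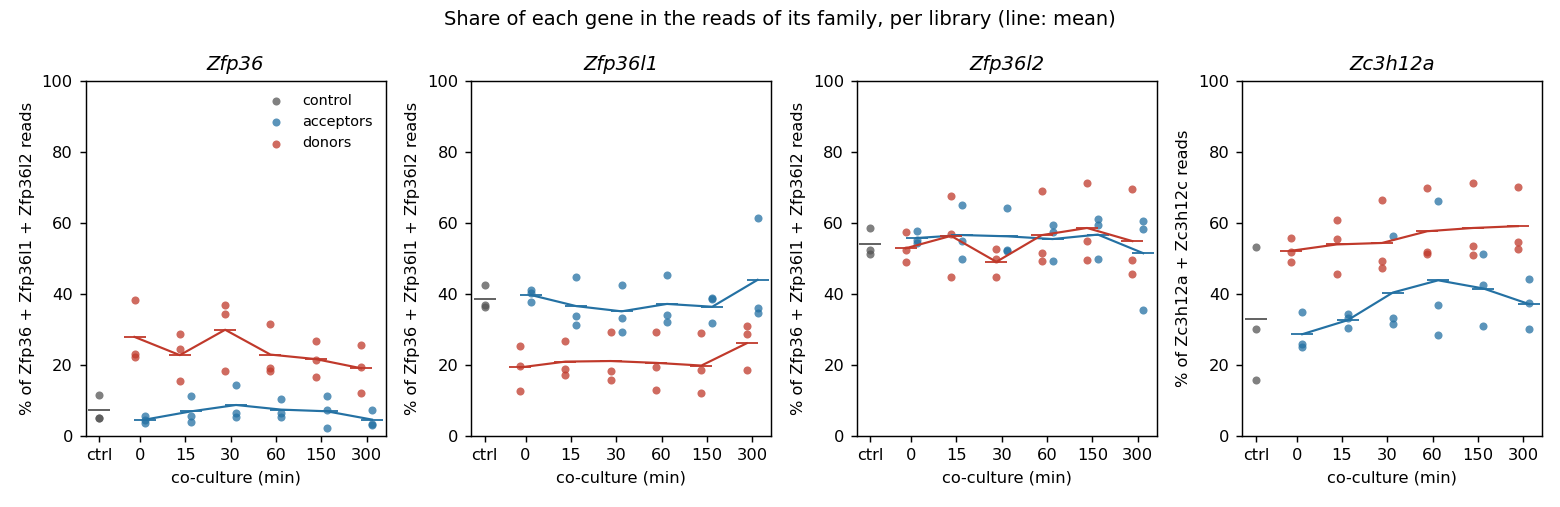
Percent of the reads of a gene family that each gene holds (y axis, 0 to 100) by minutes of co-culture (x axis, evenly spaced categories), with points for libraries and lines for group means. The donor share of Zfp36 stands at 12.02% to 38.4% and the acceptor share at 2.19% to 14.2%, while the shares of Zfp36l2 overlap throughout.

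Time in co-culture moved none of the 7 genes past the test. In donors the 35 comparisons of a later time with 0 min gave log2 ratios from −0.68 to 0.47, all with an adjusted p of 1, and 1 had an unadjusted p under 0.05. It was Rc3h1 at 60 min, which fell short of a call at −0.56 ± 0.27 (unadjusted p = 0.0461). Among all genes 0 were called at any later donor time (198 to 605 at an unadjusted p under 0.05). In acceptors the 35 comparisons ran from −0.64 to 1.28 with a lowest adjusted p of 0.625 (Elavl1 at 300 min, −0.44), beside 0, 0, 1, 2 and 1 genes called of 13034 at 15, 30, 60, 150 and 300 min, which is 0%, 0%, 0.00767%, 0.0153% and 0.00767%. The −0.64 is Zfp36l1 at 300 min, which was −0.26 without the library that stands apart, as Elavl1 was −0.23, each then with an adjusted p of 1. Those with an unadjusted p under 0.05 were both of Zc3h12a, whose log2 ratios over 0 min were 0.76 ± 0.28 at 30 min and 0.77 ± 0.28 at 60 min, each with an adjusted p of 1. Its acceptor libraries at those times, listed above, all lay above those at 0 min, as did Zfp36 at 30 min (1.28 ± 0.66, adjusted p = 1). How many of all genes separate in this way was not counted, so no rise is read from it. Tests for any change over the 6 times called none of the 7 in donors or acceptors. The test for a difference between the time courses called none of them either, beside 0.0153% of all genes.

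The 3 genes with the most similar pattern to each factor were taken by Pearson correlation of log2 CPM over the 39 libraries. The points share libraries and depth, and much of each correlation is the gap between donors and the rest. For Zc3h12a they were Perm1 (r = 0.949), Ppfia3 (0.947) and Mmp13 (0.943), the last a collagenase gene. For Zfp36 they were Tmem189, Cox17 and Rusc2 (r = 0.949, 0.949 and 0.948). For Zfp36l1 they were H6pd, Prdm1 and Dnase2a (r = 0.937, 0.934 and 0.928), and for Zfp36l2 Paics, Sgpp1 and Unc93b1 (0.951, 0.946 and 0.944). Zc3h12c came closest to Stx2, Herc6 and Ifi211 (r = 0.851, 0.842 and 0.835). Elavl1 came closest to Sec61b (r = 0.807) and Rc3h1 to Eif2ak2 (r = 0.689), which encodes the kinase PKR.

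The proteins that work with these factors were described by lists, whose counts are read beside the median log2 ratio of all genes, −0.03 for donors over control at 0 min and −0.08 for the mean over acceptors. The counts against acceptors are from that mean, in which 62.6% of all genes were called, 29.5% higher and 33% lower, so they cannot be set against the counts over control. Over control at 0 min, 10.3% of all genes were called higher and 9.34% lower. A count near such shares is no result about a list. All these shares, here and below, belong to the main fit. With total counts, fewer of all genes were called higher than in acceptors and more lower, as given above with Rc3h1 and Elavl1. List counts with total counts therefore cannot be set against these shares. Of 9 tested relatives and regulators, 2 were higher and 1 lower than the control (1 and 1 with total counts), with a list median of 0.48. Against acceptors, 7 were higher and 1 lower with a median of 0.53, or 4 and 1 with total counts, beside 29.5% and 33% of all genes. Malt1, the protease that cleaves Regnase-1 and roquins, ran from 11.3 to 28.8 CPM in donors, 2.48 to 9.56 in the control and 2.90 to 8.42 in acceptors. It was higher in donors by 1.68 ± 0.41 over control (adjusted p = 0.00322) and by 1.88 ± 0.17 over acceptors (adjusted p = 1.49e-11). Zc3hav1, which encodes the antiviral protein ZAP, rose by 0.58 ± 0.20 and 0.84 ± 0.08, and Zc3h7b was lower by −1.87 ± 0.48 and −1.65 ± 0.20. The paralogue of Rc3h1, Rc3h2, was not called (0.17 ± 0.23, adjusted p = 0.662, and 0.17 ± 0.09, adjusted p = 0.116); it was named after its values were seen.

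Among 20 other proteins that bind AU-rich or related elements, 5 were higher and 2 lower than the control (3 and 5 with total counts), with a list median of −0.19. These counts stand beside 10.3% and 9.34% of all genes. Against acceptors the counts were 5 and 8 (5 and 15 with total counts), with a median of 0.01, beside 29.5% and 33% of all genes. Igf2bp2, which encodes a message-stabilising reader, stood at 369 to 527 CPM in donors, 40.9 to 48.8 in the control and 27.8 to 168 in acceptors, or to 68.1 without the library that stands apart. It was higher by 3.31 ± 0.35 over control (adjusted p = 1.66e-08) and by 3.10 ± 0.14 over acceptors (adjusted p = 5.28e-19). Arid5a, whose product protects Il6 messages from Regnase-1, stood at 17.3 to 41.5 CPM in donors, 5.43 to 7.21 in the control and 2.78 to 11.8 in acceptors (1.91 ± 0.34 over control, adjusted p = 9.09e-05). The neuronal HuR relatives were low, with Elavl4 at 0 to 2.93 CPM in donors and 3.65 to 7.67 in the control (−3.90 ± 1.07, adjusted p = 0.00834). Elavl2 was at most 2.54 CPM in any library and lower in donors than in acceptors (−2.60 ± 0.80, adjusted p = 0.00535).

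Among the machinery that these factors recruit, of 20 deadenylase genes 0 were higher and 1 was lower (Btg2, −0.92 ± 0.22, adjusted p = 0.00258), with a list median of 0.03. With total counts 4 were lower. In the main fit, 10.3% of all genes were higher and 9.34% lower than the control. Against acceptors 6 were higher and 4 lower (3 and 10 with total counts), with a median of 0.02, beside 29.5% and 33% of all genes. Btg2, an activator of deadenylation, fell by 1.33 on the log2 scale, Parn, a poly(A) nuclease, was at −1.18 ± 0.20 and Tob2 at 1.01 ± 0.16. Of 20 decapping and 5′ to 3′ decay genes, 0 were higher and 3 lower than the control (0 and 6 with total counts), at a median of −0.11, and 6 and 7 against acceptors (2 and 12 with total counts), at −0.01. The lower genes of the first comparison were Lsm2, Lsm7 and Lsm4, subunits of the Lsm ring, at −1.54 ± 0.30, −1.09 ± 0.29 and −0.82 ± 0.23. Patl1, which joins that ring to decapping, was higher against acceptors by 1.32 ± 0.24 (adjusted p = 1.37e-05).

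Of 17 exosome and 3′ to 5′ decay genes 16 were tested, and 0 were higher and 4 lower than the control (0 and 7 with total counts), with a list median of −0.31. Beside the counts over control stand 10.3% and 9.34% of all genes. Against acceptors 1 was higher and 11 lower (0 and 13 with total counts), with a median of −0.54, beside 29.5% and 33% of all genes. Exosc5, a core exosome subunit, stood at 6.21 to 16.3 CPM in donors, 20.3 to 34.1 in the control and 18.4 to 65.0 in acceptors (35.0 without that library). It was lower by −1.27 ± 0.30 over control (adjusted p = 0.00255) and −1.32 ± 0.12 over acceptors (adjusted p = 4.04e-11). Dis3l2, an exosome-independent nuclease, was lower by −2.00 ± 0.64 and −1.78 ± 0.25, and Exosc7 by −0.98 ± 0.32 and −0.73 ± 0.13. The single higher gene was Exosc3 (0.97 ± 0.34, adjusted p = 0.0137).

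Of 15 tested kinases, phosphatases and 14-3-3 genes that act on ZFP36, 4 were higher and 1 lower than the control (3 and 4 with total counts), at a median of 0.31. The shares of all genes over control were 10.3% and 9.34%. Against acceptors 8 were higher and 5 lower (5 and 6 with total counts), at 0.21, beside 29.5% and 33% of all genes. Dusp1, the phosphatase that turns off p38, measured 746 ± 154 CPM in donors at 0 min and 233 ± 99.7 in the control (1.68 ± 0.39, adjusted p = 0.0019). Against acceptors it was higher by 1.44 ± 0.16. Map2k3, a kinase that activates p38, was higher by 1.52 ± 0.26 and 1.13 ± 0.10. The 1 gene lower than the control was Mapk14, which encodes p38α itself. Mapk14 was also called lower than in acceptors at each of the 6 times and in their mean. Ppp2ca, the catalytic subunit of the phosphatase PP2A, was higher by 1.11 ± 0.16 and 1.16 ± 0.07. Mapkapk2, which encodes MK2, measured 297 ± 55.3 CPM in donors at 0 min and 291 ± 77.9 in the control (adjusted p = 0.952), and was higher than in acceptors by 0.55 ± 0.10 over the 6 times (adjusted p = 1.22e-05).

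**Figure D4:**
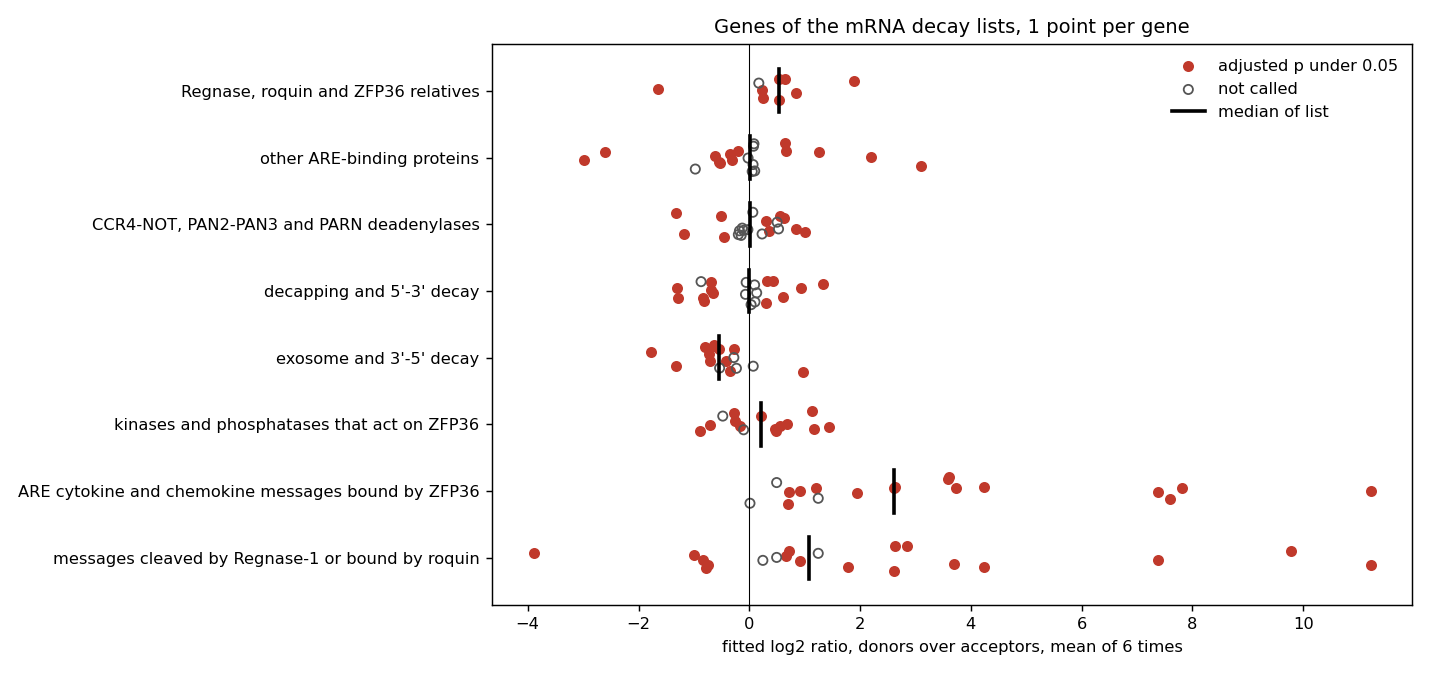
Fitted log2 ratio of donors over acceptors, mean of 6 times (x axis), for the tested genes of 8 lists (rows). Filled points have an adjusted p under 0.05 and the bar is the list median, which is −0.54 for the exosome list and 2.62 for the AU-rich cytokine messages. The last 2 lists share several messages, Il6, Il12b, Il1b and Tnf among them.

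Among the messages these factors act on, 18 of 22 AU-rich cytokine and chemokine messages were tested. Of these, 11 were higher and 0 lower in donors than in the control (10 and 1 with total counts), with a median of 2.37, and 15 and 0 against acceptors (13 and 0 with total counts), with a median of 2.62. Among all genes, 10.3% were higher and 9.34% lower than the control, and 29.5% and 33% against acceptors. Il12b and Il6 had no reads in the control, and Csf3 had almost none in acceptors. Such genes could only come out higher, so these counts and medians rest partly on the filter. When only the groups compared were fitted, 16 were tested against the control, with 8 higher and 0 lower. Il12b was not detected in the control libraries and measured 125 ± 120 CPM in donors at 0 min, at least 1546-fold above a floor of 3 counts over the group. Il6 was not detected in the control either and measured 5.26 ± 4.22 CPM, at least 64.9-fold higher. Il1b measured 1109 ± 624 CPM in donors at 0 min and 243 ± 185 in the control (2.19 ± 0.69, adjusted p = 0.0228). Il1a ran from 51.9 to 314 CPM in donors and reached 1.26 in the control and 1.88 in acceptors. Csf3 was higher than in acceptors by 7.82 ± 0.76 (adjusted p = 3.53e-09), from 0.655 to 10.1 CPM in donors and at most 0.246 in acceptors. Tnf was not called at 0 min, with 129 ± 54.0 CPM in donors and 179 ± 105 in the control (−0.47 ± 0.54, adjusted p = 0.592), and was higher than in acceptors over the 6 times by 0.92 ± 0.22 (adjusted p = 6.46e-04).

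Of 22 messages cleaved by Regnase-1 or bound by roquin, Zc3h12a among them, 20 were tested. They numbered 9 higher and 1 lower than the control (9 and 4 with total counts) at a median of 0.66, and 12 higher and 5 lower than acceptors (10 and 5 with total counts) at 1.08. The shares of all genes were 10.3% and 9.34% against the control and 29.5% and 33% against acceptors. Il12b and Il6, which could only come out higher than the control, are in this list too. When only the groups compared were fitted, 17 were tested against the control, with 7 higher and 3 lower. Lcn2, which encodes an iron-binding acute-phase protein, ran from 833 to 1307 CPM in donors, 0.271 to 0.919 in the control and 0.123 to 3.74 in acceptors. Nfkbiz, the IκBζ message, measured 32.5 ± 20.8 CPM in donors at 0 min and 51.9 ± 13.1 in the control (−0.68 ± 0.37, adjusted p = 0.201), and was lower than in acceptors over the 6 times by −0.78 ± 0.15 (adjusted p = 3.26e-05). Nfkbid, the only called lower message against the control, ran from 7.21 to 28.7 CPM in donors and 19.7 to 21.1 in the control (−1.08 ± 0.35, adjusted p = 0.0245; −0.75 ± 0.14 over acceptors). The level of a message is set by synthesis and decay together, and neither was measured here.

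Several values carry a counting limit. Zfp36 overlaps the antisense gene Gm44710, Zfp36l2 the antisense gene AC132455.1, Zfp36l1 the noncoding gene Gm26669 and Elavl1 the start of Ccl25. Rc3h1 overlaps Gm37052, Gm37809 and Gm37653 on its own strand, and Zc3h12c the microRNA gene Mir6244 on the other strand. The overlaps of Zfp36, Zfp36l2, Elavl1 and Rc3h1 lie in the 5′ part of each gene and do not reach its annotated poly(A) end. That of Zc3h12c does not reach the end either. That of Zfp36l1 spans most of the gene, which also has a processed pseudogene on chromosome X. Whether strand was used in counting, and how shared reads were counted, is not stated in the labels or files, so these levels are uncertain to that extent.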

How the data were processed

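Primary mouse microglia were measured in 39 libraries. The table the authors deposited holds raw counts for each gene symbol, and per the file headers a second table of the same counts normalized with DESeq2, a signal that differs from the counts by 1 factor per library (0.614 to 1.40). STAR, Partek, DESeq2 and build mm10 are named in the submitters' processing notes, with no versions. Tests used the raw counts in edgeR 4.0.16 under R 4.3.3: default expression filter (13034 genes, 99.97% of reads), TMM factors, 1 mean per group, quasi-likelihood tests, Benjamini-Hochberg adjustment at 0.05. The common biological coefficient of variation was 0.383. On simulated counts for donors against control at 0 min (12740 genes), the test recovered 33 of 100 genes changed 2-fold and 88 of 100 changed 4-fold, with 8 false calls. Genes of low mean CPM were not among those changed, and the simulated counts had no library sets. CPM use TMM-scaled totals, and logarithms for correlations a prior count of 2. Group names come from the sample titles. Total reads were 10249066 to 11587525 per control library, 8753743 to 15910662 per donor and 8649169 to 14743934 per acceptor library. Floors cover counting error only, since reads carry no molecular identifiers.

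The members and lists were chosen with earlier results of these data known. Genes named are the 7, the 3 most similar to each, up to 3 called genes per list and comparison with the largest log2 ratio, and Tnf, Il1b, Il6, Il12b, Nfkbiz, Dusp1 and Mapkapk2. Nfkbid, Rc3h2 and Mapk14 were named in addition after their values were seen. Alternatives were other scalings, no filter, DESeq2 1.42.0, limma 3.58.1, fits of only the groups compared, each library left out, and a block on the rank of the library number. Libraries of equal rank deviated together (every r above 0.1) in all comparisons of acceptors with acceptors or control, at 15 min between donors and acceptors, and in donors over time except at 150 min. Elsewhere the lowest r ran from −0.296 to 0.0982. Sequences and positions are from GENCODE M21.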

Additional observations from a re-analysis of the deposited data

How the results depend on the processing

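Over 140 results for the 7 genes, 1980 alternative values kept the side of the threshold, 16 gained a call, 32 lost one and 2 reversed. The reversals were Rc3h1 (−0.31) and Elavl1 (−0.26) for donors over acceptors as the mean of 6 times with total counts only, where the median of all genes was −0.42. The 1980 include 128 that differed in sign, with no call in either fit. Fitting only the groups compared raised the number of the 7 called between donors and acceptors at 150 min from 2 to 4. Leaving out 1 library at a time gave 1 to 2 called of the 7 between donors and acceptors at 15, 30, 150 and 300 min (reported: 2, 2, 2 and 1), and 1 to 2 for donors at 300 min against control (reported: 3). It gave 2 to 3 at 0 and 60 min, 2 for donors against control at 0 min, and 5 for the mean of 6 times. Where a group was left with 2 libraries, the spread was pooled over all groups. The block on the rank of the library number changed 1 call of the 7 genes, Zc3h12c between donors and acceptors at 150 min, which became called (0.87, adjusted p = 0.0459); there the ranks did not pair the libraries. It changed no other call.

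Groups of 3 libraries at a biological coefficient of variation of 0.383 limit what single times can show (33 of 100 simulated 2-fold changes recovered for donors against control), and a missed threshold does not show that levels were alike. The library that stands apart, replicate 2 of acceptors at 300 min, ends the call of Zfp36l2 between donors and acceptors at that time and lowers the size of the Zfp36l1 ratio from −1.11 to −0.73. It also enters the spread that the 1 fit gives to every comparison. Without it, the mean over 6 times of Zfp36l2 was −0.87 (adjusted p = 2.78e-12). Fits of only the groups compared, which leave it out before 300 min, called Zfp36l2 at 0, 15, 30 and 150 min. Its part in the spread at those times was not tested. Zfp36 was not called at 300 min, and became called without replicate 1 of donors or without replicate 3 of acceptors at that time. The second of these fits keeps the library that stands apart.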

Other observations

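Across the 39 libraries the factors did not form 1 block. As descriptions with no test, and over points that share libraries and the gap between donors and the rest, Pearson's r of log2 CPM was 0.752 between Zfp36l1 and Zfp36l2, −0.771 between Zc3h12a and Zfp36l1, 0.593 between Zc3h12a and Zfp36, and −0.127 between Zfp36 and Zfp36l1. Rc3h1 correlated most with Zc3h12c (r = 0.522), and Elavl1 with Zfp36 (r = 0.642).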
